A study of Mus musculus with 144 samples.

Results

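The 54 single cells of untreated retinas in this series differed widely in how many genes each of them yielded, and the comparison described here sets the gene-rich cells against the gene-poor cells. The classes were chosen by measured values: in each cell, genes reaching 1 FPKM were counted (fragments per kilobase of exon, scaled to the cell's assigned reads). Cells above the median count of 2793 genes were taken as gene-rich (27 cells) and cells at or below it as gene-poor (27 cells), out of 144 cells in the whole series. The cells were sorted 1 by 1 from retinas of Iba1-EGFP mice at 16 weeks of age that had received no treatment, and were labelled microglia. EGFP in this strain marks cells with Iba1 expression, which include microglia and other macrophages. The other cells came from mice of the same strain and age, 54 at day 2 and 36 at day 4 after optic nerve crush. The labels name no animal, so all cells of a time point count as 1 sample.

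Microglia are the resident macrophages of the retina, held in a surveying state by signals of their neighbours and marked by genes such as P2ry12, Tmem119 and Cx3cr1. Immediate-early genes such as Fos, Jun, Junb and Zfp36 are transcribed within minutes of a stimulus without new protein synthesis, and their mRNAs are short-lived, partly through AU-rich elements in the 3′ untranslated region. In microglia they are known to be induced by tissue dissociation and sorting as well as by signals in the tissue. The number of genes found in a cell depends on how much RNA it held, how well that RNA was captured and how evenly the reads were spread over genes.

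The split rests on the same values that are compared below, since every gene contributes to the count of genes. The differences are therefore descriptions, without a test or p-value, and the wide spread of the cells around each mean is given as an SD.

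Gene-rich cells held between 2798 and 5608 genes (median 3466) and gene-poor cells between 1137 and 2788 (median 2103). The 3 gene-rich cells nearest to the median held 2798, 2841 and 2850 genes, and the 3 nearest gene-poor cells 2788, 2694 and 2649, so the classes meet without a gap. Read depth did not separate them in the pooled cells. In units of 1000000, assigned reads had a median of 4.89 in gene-rich cells (1.67 to 13.8) and 4.98 in gene-poor cells (0.710 to 11). Within plates the order varied: in the same units the median was 2.40 against 5.06 in plate 1, 6.01 against 8.66 in plate 2 and 5.16 against 3.46 in plate 3. When each cell was thinned to 2000000 reads and genes with at least 5 reads were counted, 48 of 50 cells kept their class, with 4 shallower cells left out. A count at FPKM 10 kept 50 of 54 cells in their class, and a split at the median of each plate kept 48.

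**Figure D1:**
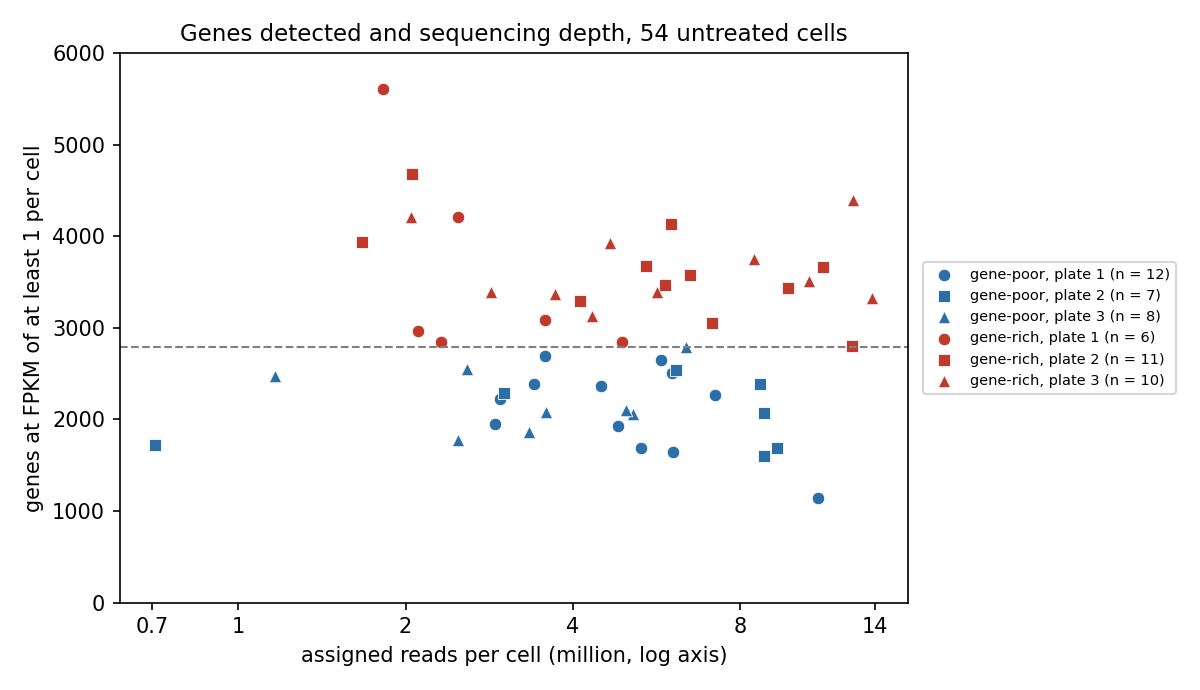
Genes at FPKM of at least 1 in each of the 54 untreated cells against assigned reads (in units of 1e+06, log axis), coloured by class and shaped by plate, with a dashed line at the median of 2793 genes. Gene-rich cells are found at low and at high depth, from 1.67 to 13.8 on this axis.

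The gene-rich cells spread their reads over more genes. The top 20 genes of a cell held 21.9% of its reads in the median gene-rich cell and 29.6% in the median gene-poor cell. Coding genes accounted for most of the gap, with a median of 2435 against 1447 at FPKM 1, while pseudogenes numbered 661 against 549. Reads on 7 rows of a nuclear copy of mitochondrial DNA, the nearest measure of mitochondrial RNA in a table without mitochondrial genes, took 0.942% against 1.69%, with overlapping ranges of 0.0241% to 6.30% and 0.313% to 4.38%. Ribosomal protein genes took 2.36% against 3.65% of reads. The part of RNA quality in these differences was not tested.

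All cells carried the microglia label, and their markers were present in both classes. At least 3 of 10 microglia markers reached 20 FPKM in 27 of 27 gene-rich and 27 of 27 gene-poor cells, and the lowest number of these markers at FPKM 1 in a cell was 9 and 7. The summed microglia marker FPKM ranged from 653 to 16021 in gene-rich cells and from 3175 to 20838 in gene-poor cells. The same criterion for other cell types was met, gene-rich against gene-poor, by 2 against 1 cells for rods, 3 against 2 for border macrophages, 1 against 0 for Müller glia, 1 against 0 for retinal ganglion cells and 0 against 1 for cones. The border macrophage sum ranged from 0.123 to 5377 FPKM against 0.215 to 6443, and the rod sum from 0 to 472 against 0 to 541. Some other sums had higher medians in gene-rich cells: 77.7 against 1.54 FPKM over 8 neutrophil markers (0.301 to 431 against 0.0619 to 492), 265 against 21.4 over 8 B cell markers (0.839 to 2752 against 0.918 to 3432) and 153 against 49.5 over 8 cone markers (7.27 to 576 against 0.718 to 771). At least 1 FPKM in any cell was reached by 4, 2 and 3 of these markers, and Lcn2 and Retnlg of neutrophils, Pax5, Igkc and Ms4a1 of B cells and Gnat2, Cngb3, Pde6c and Opn1mw of cones were at 0. Their part in the results was not tested. No cell reached 3 markers of monocytes, neutrophils, T and NK cells, B cells or the other retinal and vascular types examined. Of 8 border macrophage markers, Cd209f and Cbr2 were at 0 in all 54 cells, as were the Müller glia markers Dkk3 and Aqp4 and the endothelial markers Tek and Cldn5.

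Plate position was uneven between the classes. Plates 1, 2 and 3 held 6, 11 and 10 gene-rich and 12, 7 and 8 gene-poor cells. The 9 untreated wells of column 2 were all gene-rich, whereas columns 1, 3, 4, 5 and 6 held 3, 3, 5, 5 and 2 gene-rich cells of 9. Wells of a column also shared low signal. Among 607 genes with at least 1000 reads of which over 95% lay in 1 cell, another well of the same plate column held a read in 38.2% of pairs. That share was 15.1% for wells of the same row, 10.6% for the rest of the plate and 2.13% for other plates. The part of reads shared between wells was not tested, but each value was set beside the highest other well of its column, with a limit of 2% chosen after seeing the data. Values at or under that limit made up a median of 9.35% of the genes counted in gene-rich cells and 23% in gene-poor cells. Counting without them gave medians of 3243 and 1641 genes and kept 50 of 54 cells in their class. For the genes with the largest differences, how often they fell under it is given beside them.

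Most differences lay above 0 on the log2(FPKM + 1) scale. Of the 55364 genes in the table, 2836 reached FPKM 1 in at least 30% of the untreated cells and were compared by the mean of log2(FPKM + 1), always as gene-rich minus gene-poor. Because the filter pools both classes, a gene could pass it mainly through gene-rich cells, as Srsf6 did with 17 against 4 cells. The median difference was 0.80 (0.63, 0.75 and 0.90 in plates 1, 2 and 3), and 79.7% of the genes were above 0. A gene is called higher here when the pooled difference was at least 1 with the same sign in all 3 plates, which was true of 1008 genes (35.5%), and lower when it was at most -1 in the same way, which was true of 8 (0.282%). Since the rule for the classes and the filter both favour higher genes, these shares are the background for each list and not a result. Differences above 0 in all 3 plates, of any size, were found for 43.7% of the genes and below 0 for 4.23%. The scale matters: on log2 of the mean FPKM, which weights the cells with the highest values, the median difference was -0.22. The classes differed in how many cells held a gene, with genes at FPKM 1 in a mean of 69.1% of gene-rich and 51.7% of gene-poor cells. Among the cells at FPKM 1 or more for a gene, the median difference was 0.0039.

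Immediate-early and stress genes stood furthest above this background. Over the 16 members measured, the list median was 4.72 (4.15, 5.67 and 4.79 by plate), and 15 of 16 were higher. The exception was Fosb, a Fos family member, at 1.71 with -0.13 in plate 3. Among cells at FPKM 1 or more, where the median gene was at 0.0039, the list median was 4.61. Of the 12 genes with the largest positive differences of all, 8 are members of this list. These 12 genes were at or under 2% of another well of the column in 1 to 5 gene-rich and 19 to 26 gene-poor cells, so that many of their low values lie where reads of a neighbouring well cannot be told apart from those of the cell itself. On log2 of the mean FPKM the list stood 2.20 above the median of all genes, against 3.92 on the scale used here.

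Zfp36, which encodes tristetraprolin, a protein that binds AU-rich elements and hastens mRNA decay, had the largest difference. Its FPKM was between 7.68 and 3163 with a median of 1223 in gene-rich cells, and between 1.31 and 1266 with a median of 8.44 in gene-poor cells. The classes overlapped at both ends, but 25 gene-rich and only 5 gene-poor cells reached 20 FPKM. Mean log2(FPKM + 1) was 9.70 ± 2.02 (SD, 27 cells) against 4.23 ± 2.69, a difference of 5.47 (4.83, 6.84 and 5.13 by plate). In 21 of the 27 gene-poor cells the Zfp36 value was at or under 2% of the highest other well of the column, against 2 of 27 gene-rich cells.

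The subunits of the AP-1 transcription factor had the same pattern. Jun ranged from 7.13 through a median of 1455 to 9453 FPKM in gene-rich cells, and from 0.993 through 11.3 to 6299.7 in gene-poor cells. Junb had a median of 4159.9 FPKM (58.8 to 15706) against 34.7 (2.49 to 12389), and Fos a median of 1908 (12.7 to 8667) against 25.4 (2.28 to 5571). Again most gene-poor cells sat near the low end while a few reached the gene-rich level: Jun was at 20 FPKM or more in 26 against 8 cells, Junb in 27 against 21 and Fos in 25 against 15. The pooled differences were 5.32 for Jun, 5.34 for Junb and 4.82 for Fos. Jund, a further AP-1 subunit, differed by 4.26 and Atf3, a stress-induced partner of Jun, by 3.69. Exons of Zfp36 overlap Gm44710, those of Jun overlap Junos and those of Dusp1 overlap Ergic1, and no strand setting of the counting is given in the sources used here, so part of these reads may belong to the neighbour.

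Feedback inhibitors and other early transcription factors had differences of similar size. Nfkbia, the inhibitor that NF-kB induces against itself, had a median of 1164 FPKM (6.89 to 2639) in gene-rich and 9.92 (1.97 to 1111) in gene-poor cells. Its difference was 5.18 (5.69, 4.85 and 4.92 by plate), and 1.85% of its values were fractions of a read, the lowest share of the 12 leading genes. The share was 48.1% for Junb. It was 64.8% for Zfp36, 63.0% for Jun and 66.7% for Jund, which leaves the levels of these 3 genes uncertain. Btg2, an antiproliferative gene of the early response, differed by 5.09 and Ier2 by 5.26. Klf6 and Klf2, zinc-finger transcription factors, differed by 5.23 and 4.63. Egr1, an early zinc-finger factor, differed by 4.85. Ppp1r15a, which directs dephosphorylation of the initiation factor eIF2 after stress, differed by 4.62, and Dusp1, a phosphatase of MAP kinases, by 4.13. Each of these genes was at 20 FPKM or more in 22 to 25 gene-rich and 3 to 10 gene-poor cells.

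The 2 other leading genes had almost no high gene-poor cells. Marcksl1, an actin-binding substrate of protein kinase C, ran from 0.192 through a median of 114 to 476 FPKM in gene-rich cells and from 0.144 through 0.825 to 25.4 in gene-poor cells. It was at 20 FPKM or more in 21 against 1 cells, and differed by 4.78. Herpud1, an endoplasmic reticulum protein of the unfolded protein response, had a median of 180.2 (0.0713 to 1253) against 2.25 (0.506 to 49) and differed by 4.65, with 21 against 2 cells at 20 FPKM. On log2 of the mean FPKM these were 5.76 and 5.45, whereas Zfp36 was at 2.97, Jun at 1.55 and Fos at 1.98. In the latter genes the highest gene-poor cell lay at 1266, 6299.7 and 5571 FPKM.

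**Figure D2:**
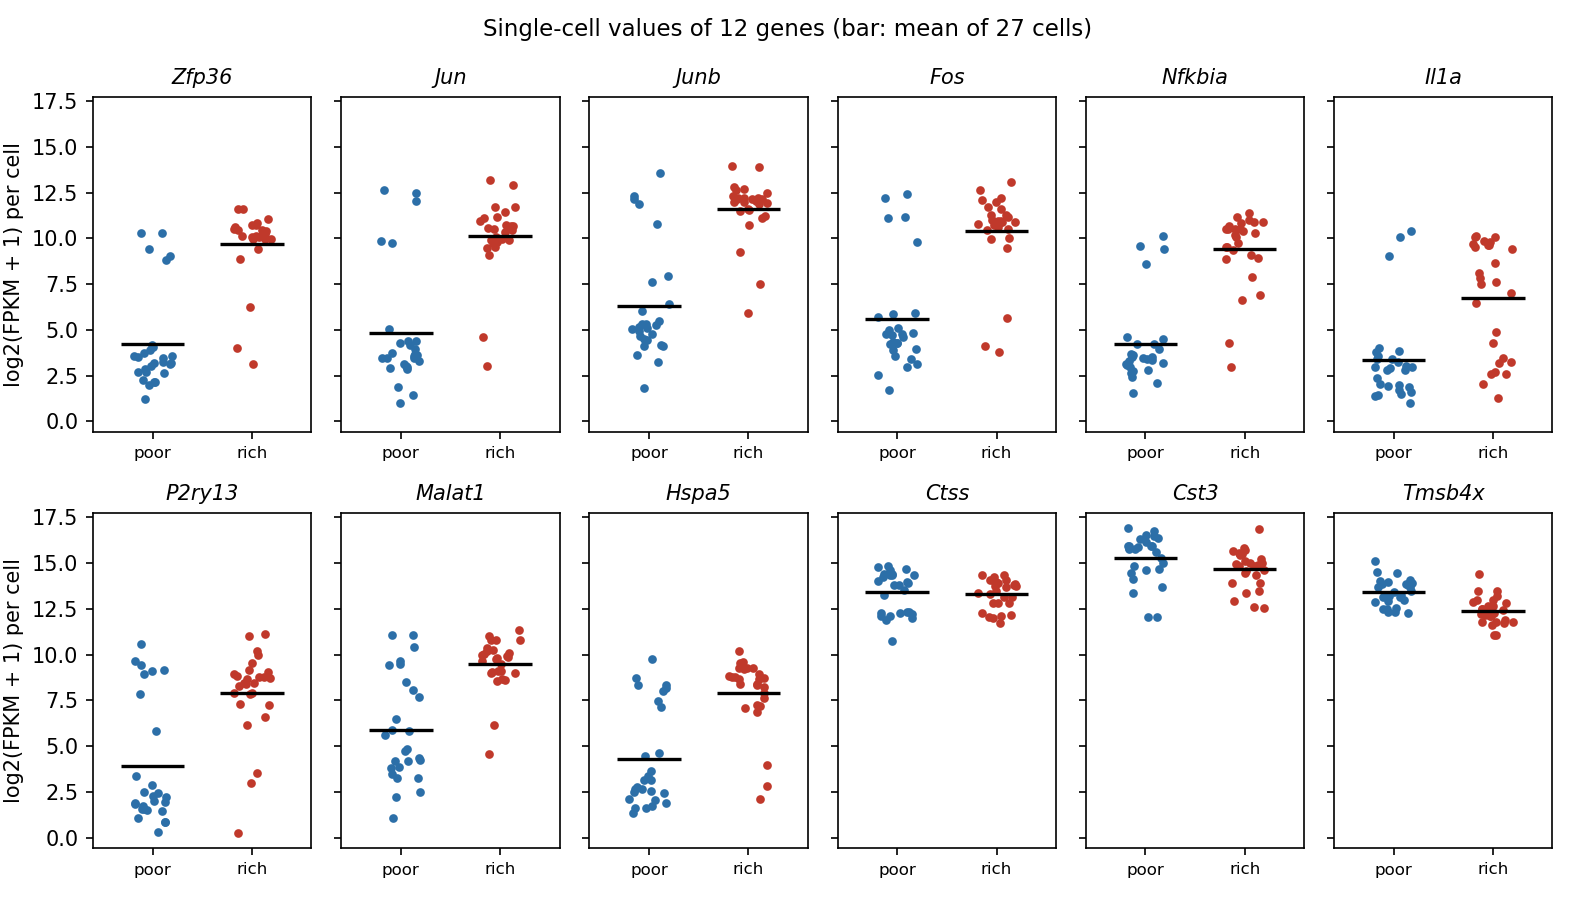
log2(FPKM + 1) of 12 genes in each untreated cell, gene-poor on the left and gene-rich on the right of each panel, with bars at the mean of 27 cells. Zfp36, Jun, Junb, Fos and Nfkbia form a high and a low set of cells with most gene-rich cells in the high set, while Ctss, Cst3 and Tmsb4x form 1 cloud in each class, with wide overlap.

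Several of these mRNAs carry the core letters of an AU-rich element. Shown are 25-base stretches around the first TATTTAT, the core in DNA letters and in capitals, for 6 of the 12 genes, read from the GENCODE M21 annotation on GRCm38.
Zfp36: tgggcccttTATTTATgacgacttt
Jun: gcttgtgcaTATTTATaatagcgtt
Klf6: tacgtctctTATTTATgccttgagg
Btg2: atgaagagcTATTTATacatgtttt
Fos: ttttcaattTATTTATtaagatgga
Klf2: acagactgcTATTTATtggacctta
These sites lie at chr7:28376968-28376992, minus strand (Zfp36), chr4:95049081-95049105, minus strand (Jun), chr13:5868492-5868516, plus strand (Klf6), chr1:134077251-134077275, minus strand (Btg2), chr12:85477105-85477129, plus strand (Fos) and chr8:72320990-72321014, plus strand (Klf2). Zfp36 holds 3 matches in 774 bases, Fos 2 in 815 and Klf6 2 in 3111. Junb, Ier2, Egr1, Marcksl1 and Herpud1 hold none. In the whole list, 11 of 16 members (68.75%) hold the letters, against 308 of 1806 coding genes compared (17.1%) and 2 of 81 ribosomal protein genes (2.47%). These 3 sets are unlike in length, with 3′ untranslated regions of 1000.5, 561.5 and 89 bases in the median. Per kilobase the letters occurred 1.08, 0.231 and 0.109 times. A match is a description of the letters and not a measured site.

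Across all coding genes the element became more frequent with the difference. In 5 groups of equal size from the lowest to the highest differences, 11.4%, 13.6%, 17.3%, 19.8% and 23.2% of the 3′ untranslated regions held TATTTAT. Their median length grew as well, at 374, 498.5, 612.5, 712.5 and 700 bases. Per kilobase the element occurred 0.182 times in the lowest and 0.302 times in the highest group. In 4 classes of region length, from short to long, genes with the element had median differences of 1.2, 1.22, 1.43 and 1.47, and genes without it 0.95, 1.20, 1.23 and 1.19. The part of the element in the differences of the early genes was not tested.

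The promoters of the early genes were read for known elements of early induction. The 250 bases upstream of the start, from RefSeq on GRCm38.p6, are shown for Zfp36, which had the largest difference, and for Fos, with 1 match each in capitals: a CArG box in Zfp36, the element bound by serum response factor, and TATAAA in Fos. Both windows also hold the GC box GGGCGG on the opposite strand, which is not marked.
Zfp36: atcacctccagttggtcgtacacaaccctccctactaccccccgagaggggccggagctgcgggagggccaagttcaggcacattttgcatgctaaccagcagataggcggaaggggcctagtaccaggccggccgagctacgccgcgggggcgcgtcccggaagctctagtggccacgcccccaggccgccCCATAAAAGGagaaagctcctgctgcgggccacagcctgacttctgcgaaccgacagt
Fos: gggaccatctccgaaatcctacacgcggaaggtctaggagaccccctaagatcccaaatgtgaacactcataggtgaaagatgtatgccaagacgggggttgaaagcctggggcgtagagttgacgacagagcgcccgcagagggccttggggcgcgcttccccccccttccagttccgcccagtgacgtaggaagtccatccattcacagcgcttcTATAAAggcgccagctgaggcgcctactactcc
The windows are chr7:28379229-28379478, minus strand, and chr12:85473640-85473889, plus strand. The CArG box lies 58 to 49 bases before the start of Zfp36, and TATAAA 33 to 28 bases before that of Fos. On either strand, 1 of the 14 list members with an entry held a CArG box, 3 held the cyclic AMP response element TGACGTCA, 0 the AP-1 site TGANTCA, 1 TATAAA and 11 the GC box GGGCGG. In all 27025 genes of the table the shares were 1.62%, 1.77%, 7.82%, 14.3% and 35.4%, against 7.14%, 21.4%, 0%, 7.14% and 78.6% in the list. Of the 1838 coding genes compared here, 1439 had an entry, with shares of 1.39%, 3.47%, 6.05%, 9.73% and 61.4% in the same order. For all genes compared the share is void, because only 1493 of 2836 had an entry. No match says only that the letters are not in this window.

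The early genes varied together from cell to cell. The mean of log2(FPKM + 1) over the 16 members was between 3.20 and 10.52 in gene-rich cells (median 8.78) and between 1.37 and 9.28 in gene-poor cells (median 2.94). No cell lay between 4.33 and 7.19. Above this gap were 24 of 27 gene-rich cells (5 of 6, 9 of 11 and 10 of 10 in plates 1, 2 and 3) and 5 of 27 gene-poor cells (3 of 12, 0 of 7 and 2 of 8). The 3 gene-rich cells below it held 2798, 2850 and 3049 genes, all near the median count. The 5 gene-poor cells above it held 2103, 2267, 2509, 2649 and 2788 genes. Because the cells form separate sets, no correlation across cells is given.

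**Figure D3:**
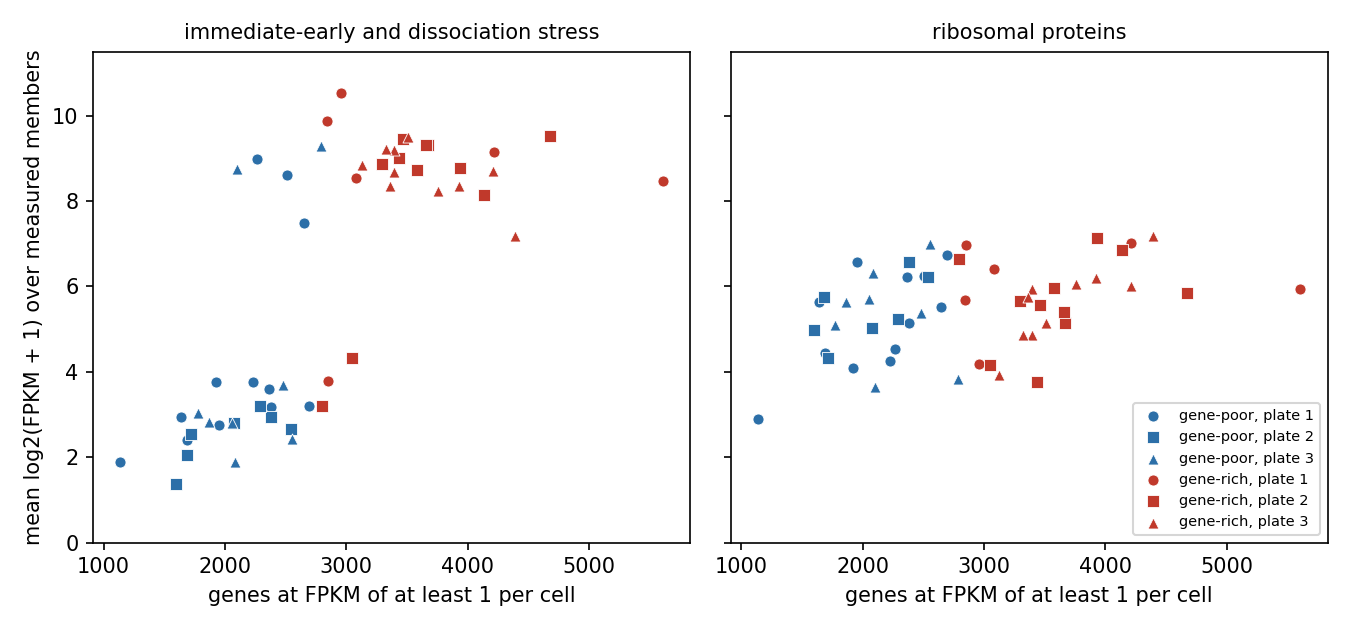
Mean log2(FPKM + 1) over 16 immediate-early and stress genes (left) and 87 ribosomal protein genes (right) in each untreated cell against its genes at FPKM 1. On the left 24 gene-rich and 5 gene-poor cells lie above an empty range from 4.33 to 7.19, while on the right the classes share 1 range.

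The contrast was present in each well column that held both classes. The list median was 5.14 in column 1, 3.54 in column 3, 3.62 in column 4, 3.40 in column 5 and 7.43 in column 6, where the median of all genes was 0.93, 0.77, 0.36, 0.68 and 0.80. These rest on 2 to 7 cells a class. Column 2 held no gene-poor cell and gives no value.

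Genes induced by glucocorticoids came next. Of 13 listed members only 5 passed the filter. These 5 had a list median of 3.84 (3.38, 3.60 and 4.21 by plate), and 5 of 5 were higher. Dusp1 belongs to this list and to the early genes. Tsc22d3, the glucocorticoid-induced leucine zipper, had a median of 106 FPKM (0.480 to 1076) in gene-rich and 1.18 (0.167 to 333) in gene-poor cells, with 19 against 4 cells at 20 FPKM. Ypel3 differed by 3.84, Txnip, which binds thioredoxin, by 3.34, and Sgk1, a kinase of ion transport, by 2.56. The classes overlapped for each of these. The list stood 3.04 above the median of all genes, but 1.88 above it on log2 of the mean FPKM and 0.95 above it with no filter on low values.

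Long noncoding RNAs, several of which stay in the nucleus, were also above the background, with a median of 2.78 over 4 measured members (3.56, 3.88 and 2.23 by plate) and 4 of 4 higher. Malat1, a nuclear speckle RNA, ran from 22.5 through a median of 890.1 to 2608 FPKM in gene-rich cells and from 1.10 through 28.1 to 2159 in gene-poor cells. It was at 20 FPKM or more in all 27 gene-rich cells and in 15 gene-poor cells. Mir142hg, the host of a blood-cell microRNA, differed by 4.6, Gas5 by 1.97 and Neat1, the RNA of paraspeckles, by 1.90. Neat1 was at FPKM 1 in 15 gene-rich against 4 gene-poor cells, so it passed the filter mainly through the gene-rich class. Over 50% of the values above 0 of Malat1, Gas5 and Neat1 were fractions of a read, and exons of these 3 genes overlap those of other rows, so their levels are uncertain. The list stood 1.98 above the median of all genes, but 0.45 above it with no filter on low values.

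Transcription factors of microglial identity, 12 of them measured, had a list median of 2.29 (2.57, 1.77 and 2.33 by plate), and 10 of 12 were higher. Irf5, an interferon regulatory factor, had a median of 143 FPKM (0.918 to 623) against 1.94 (0.259 to 672), with 21 against 5 cells at 20 FPKM. Irf8, which microglia require, differed by 2.40, Sall1, a factor of microglial identity, by 2.39 and Spi1, the master factor PU.1, by 1.40. Maf and Fli1 differed by 1.18 and 0.58 and had the opposite sign in 1 plate. Among cells at FPKM 1 or more the list median was 0.25, against 2.29 over all cells. The list stood 1.49 above the median of all genes, but 0.69 above it with the filter at 10% of cells.

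For 18 homeostatic microglia genes the list median was 2.16 (2.17, 1.25 and 1.78 by plate), and 14 of 18 were higher. P2ry13, a purine receptor, led with a median of 352 FPKM (0.203 to 2228) against 3.68 (0.255 to 1509) and 24 against 8 cells at 20 FPKM. Siglech, a sialic acid-binding lectin, was at 321 (12.7 to 739) against 34.5 (0.539 to 1393). P2ry12, the purine receptor that guides microglial processes, differed by 2.28 with 26 against 15 cells at 20 FPKM, Tmem119 by 2.39 with 26 against 15, and Gpr34 by 2.06 with 26 against 14. Some abundant members did not follow: Csf1r, receptor of the survival factor CSF1, differed by 0.25, with the opposite sign in 1 plate. Sparc, a matrix glycoprotein, differed by -0.13. The list stood 1.35 above the median of all genes, but 0.67 above it with the split made within each plate. It also supplies markers by which the cells were recognised as microglia, and 27 of 27 cells of each class met that check.

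Cytokines and chemokines, listed with NF-kB feedback genes, gave a list median of 1.6 over 19 members (1.61, 1.26 and 1.46 by plate), and 12 of 19 were higher. Nfkbia, described above, had the largest difference, followed by Nfkbiz, a further NF-kB regulator, at 3.48, the cytokine Il1a at 3.34, Cd83, a surface protein of activated myeloid cells, at 3.25, the adhesion molecule Icam1 at 3.19 and Bcl2a1b, a survival gene of the Bcl2 family, at 3.03. The chemokines spanned a wide range, with Ccl3 at 2.86, Ccl12 at 1.6, Ccl4 at 1.54, Ccl2 at 0.16, Ccl5 at -0.58 and Ccl9 at -0.88. Among cells at FPKM 1 or more the list median was 1.66. The list stood 0.80 above the median of all genes, with 0.43 at a pseudocount of 0.1 and 2.60 on log2 of the mean FPKM.

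The 3 genes of the series title also varied among untreated cells. Il1a, interleukin-1 alpha, had a median of 192 FPKM (1.38 to 1120.3) in gene-rich and 6.57 (0.979 to 1366) in gene-poor cells. It was at 20 FPKM or more in 18 against 3 cells, and differed by 3.34 (3.87, 3.42 and 3.03 by plate). Tnf, tumour necrosis factor, had a median of 5.24 (0 to 704) against 2.04 (0.524 to 140.4), with 8 against 2 cells at 20 FPKM and a difference of 1.62 (1.74, 0.85 and 2.80). Gpr84, a G protein-coupled receptor of myeloid cells that senses medium-chain fatty acids, had a median of 7.47 (0.268 to 1152) against 1.91 (0.404 to 474), with 12 against 4 cells. Its difference of 2.28 was not shared by the plates, at 2.31, -0.67 and 5.0. In all 3 genes the classes overlapped. The highest value lay in a gene-rich cell for Tnf and Gpr84 and in a gene-poor cell for Il1a. Values at or under 2% of the highest other well of the column made up 13, 18 and 9 of the gene-rich and 18, 23 and 19 of the gene-poor cells for Gpr84, Tnf and Il1a. Exons of Gpr84 overlap Gm49482 and those of Il1a overlap Gm14023.

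Chaperones were divided. The list of heat shock and endoplasmic reticulum chaperones had a median of 1.82 over 18 measured members (1.70, 1.57 and 1.83 by plate), with 10 of 18 higher. Hspa5, the main chaperone of the endoplasmic reticulum, had a median of 409.8 FPKM (3.34 to 1187) against 7.71 (1.51 to 862) and 24 against 10 cells at 20 FPKM. Dnajb1, a stress-induced cochaperone, was at 20 FPKM in 14 against 1 cells, and Pdia3, a disulfide isomerase, in 23 against 8. The chaperone list stood 1.02 above the median of all genes, but 0.34 above it on log2 of the mean FPKM. The mitochondrial chaperonin pair was not higher, with Hspe1 at 0.42 and Hspd1 at -0.52, nor was Hsp90b1 at -0.07. The cytosolic CCT chaperonin had a median of 0.27 over 6 members with 1 higher (16.7%, against 35.5% of all genes), Cct4 at 2.73. Cct4 was at FPKM 1 in 16 gene-rich against 4 gene-poor cells, so it passed the filter mainly through the gene-rich class.

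Single members stood out in lists whose median was nearer to that of all genes. Of all genes 35.5% were higher, against 44% of the spliceosome list, 44.8% of actin regulators, 36.8% of lysosomal genes and 50% of glycolysis genes. Complement and phagocytosis genes were below that share, at 26.3%. The spliceosome list had a median of 0.71 over 25 members with 11 higher, led by the serine- and arginine-rich factors Srsf5 at 3.66, Srsf7 at 3.07 and Srsf6 at 2.83. Srsf6 was at FPKM 1 in 17 gene-rich against 4 gene-poor cells, so it passed the filter mainly through the gene-rich class. Actin regulators had 0.99 over 29 members with 13 higher, among them Coro1b at 3.95, a coronin, and Actg1 at 3.42, cytoplasmic actin. Lysosomal genes had 1.10 over 38 with 14 higher, led by the proton pump subunit Atp6v1b2 at 3.09 and the protease Ctsc at 2.57. Atp6v1b2 also passed the filter mainly through gene-rich cells, with 16 against 6 cells at FPKM 1. Glycolysis had 1.19 over 10 with 5 higher, and Hk2, a hexokinase, was at 20 FPKM in 18 against 2 cells. Of the values above 0 of Coro1b and Actg1, 87.0% and 98.1% were fractions of a read, and those of Srsf5 72.2%, which leaves their levels uncertain. Complement and phagocytosis genes had 1.32 over 19 with 5 higher, and differed by plate at 0.22, 1.56 and 2.37. The anaphylatoxin receptors C5ar1 at 2.7 and C3ar1 at 2.68 were higher, whereas the C1q chains C1qa, C1qb and C1qc were at 0.21, -0.02 and 0.64.

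Set against the median of all genes, the pooled medians of the remaining lists ran from -0.35 (antigen presentation) to 0.25 (DNA replication and mitosis). Antigen presentation had 12.5% of its members higher, against 35.5% of all genes, and stood at -0.21, 1.10 and 0.60 by plate. Respiratory chain genes had a median of 0.98 over 47 members with 15 higher, the proteasome 0.91 over 27 with 9, DNA replication and mitosis 1.06 over 4 with 2, and mitochondrial ribosome genes 0.81 over 13 with 4. Ribosome biogenesis had 0.75 over 7 with 2, the Ran cycle 0.69 over 3 with 1 (but 2.08, 1.93 and 1.63 within plates), the interferon response 0.62 over 8 with 2, translation factors 0.52 over 23 with 5 and antigen presentation 0.45 over 16 with 2. Of the sterol list only Mylip was measured, at 0.64.

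Ribosomal protein genes differed least among the large lists, with a median of 0.28 over 87 members (0.73, -0.01 and 0.24 by plate). Of these genes, 13 of 87 were higher (14.9%, against 35.5% of all genes). Their mean level was between 3.76 and 7.18 in gene-rich cells (median 5.85) and between 2.90 and 7.0 in gene-poor cells (median 5.37), so the ranges nearly coincide. Rpl18 was at 2.54, while Rps27, Rpl30 and Rpl23a were at -0.92, -0.91 and -0.95 with the same sign in all 3 plates. For 78 of the 87 genes over 50% of values were fractions of a read, and these genes have many processed copies, so single members are uncertain.

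Disease-associated microglia genes were the lowest list, with a median of 0.18 over 14 members (-0.09, 0.23 and 0.52 by plate). Of these genes, 3 of 14 were higher (21.4%, against 35.5% of all genes). Those were Cd9, a tetraspanin, at 1.5, Ccl6, a chemokine, at 1.43 and Ctsl, a lysosomal protease, at 1.28. Trem2, the lipid receptor of this state, was at 0.16, Apoe at -0.07 and Tyrobp, the adaptor of Trem2, at -0.41. Cst7 and Spp1, which define the state, were low throughout: Cst7 had a highest value of 8.19 FPKM in gene-rich and 10.4 in gene-poor cells, and Spp1 reached 20 FPKM in 2 against 1 cells.

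**Figure D4:**
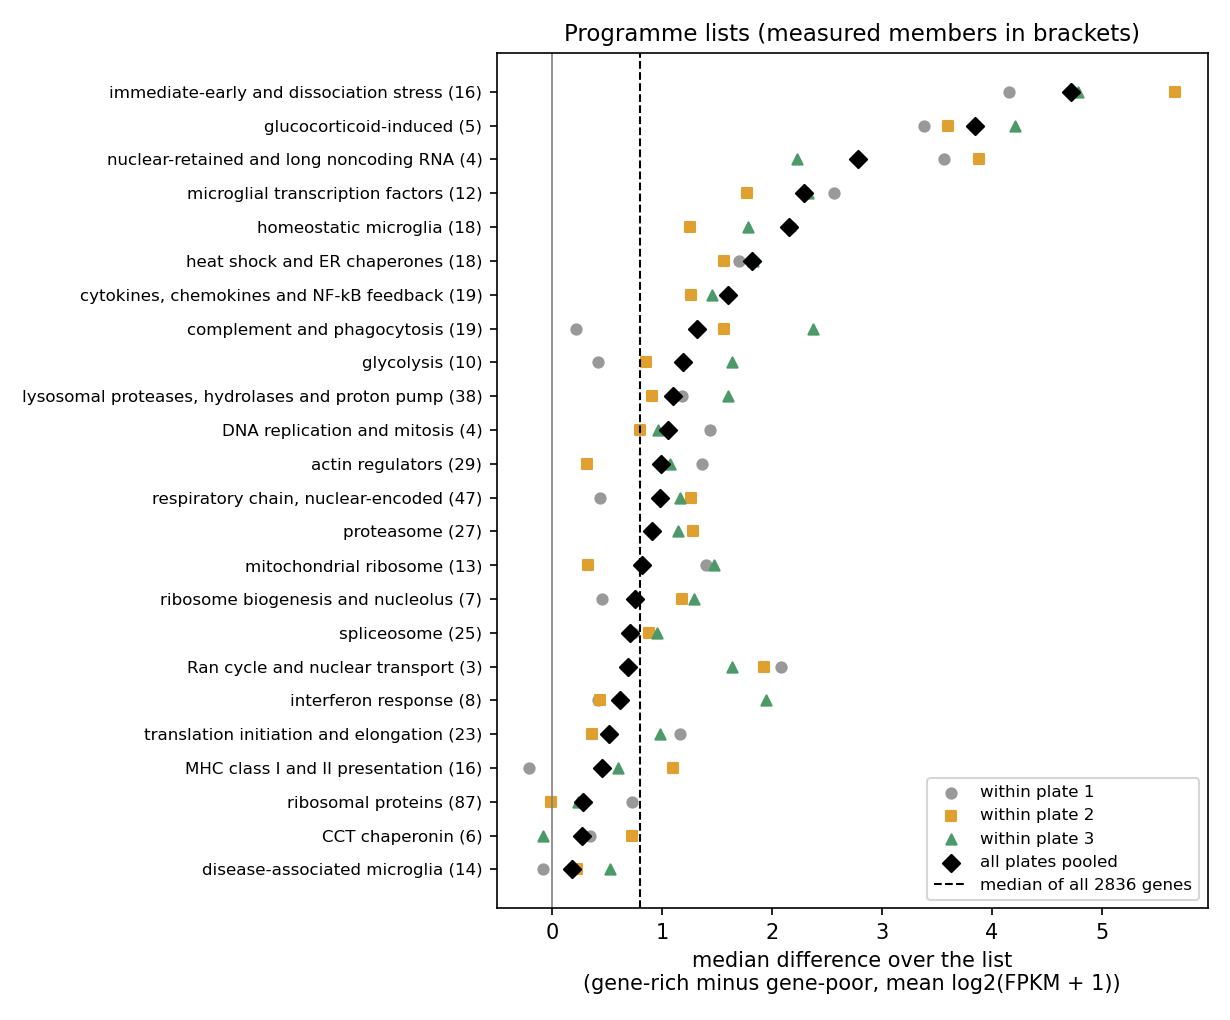
Median over each list of the difference in mean log2(FPKM + 1), gene-rich minus gene-poor, for all plates (diamonds) and within each plate, for the 24 lists with at least 3 members measured, with a dashed line at the median of all 2836 genes. Immediate-early genes at 4.72 and glucocorticoid-induced genes at 3.84 lie furthest right, and ribosomal proteins at 0.28 and disease-associated microglia genes at 0.18 lie left of the line.

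The most abundant mRNAs of these microglia had similar or lower values in gene-rich cells, on a scale where all genes of a cell share 1 total. Tmsb4x, thymosin beta 4, which binds actin monomers, had a median of 5225 FPKM (2162 to 21772) in gene-rich and 10926 (4868 to 36192) in gene-poor cells. Its mean log2 value was 12.41 ± 0.75 (SD, 27 cells) against 13.40 ± 0.74, a difference of -1.0 (-0.68, -1.0 and -1.25 by plate), just short of the criterion for lower. The classes overlapped, and all 54 cells were far above 20 FPKM. Fth1, ferritin heavy chain, differed by -0.91 with a median of 1389 against 2918 FPKM, and 74.1% of its values were fractions of a read. Cst3, cystatin C, had the highest mean of all genes and a median of 30165 against 56919 FPKM. Its difference of -0.58 did not hold in plate 1, at 0.67, -1.08 and -1.09.

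Other abundant genes were close to 0. Ctss, cathepsin S, had a median of 11218 FPKM (3395 to 21016) against 14576 (1691 to 29263) and differed by -0.10. C1qb differed by -0.02 and B2m, the light chain of class I molecules, by -0.11. Apoe, apolipoprotein E, and Lyz2, lysozyme, differed by -0.07 and 0.63, but with SDs of 3.26 to 4.06 over cells and opposite signs between plates. Fractions of a read made up 96.3% of the values of Cst3, 83.3% of C1qb, 79.6% of Lyz2 and 66.7% of Ctss, which leaves their levels uncertain. Mir5107, whose exon overlaps Cd74, the invariant chain of class II molecules, is among the 10 abundant genes named and its reads cannot be told apart from those of Cd74.

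Of the 8 genes that met the criterion for lower, 3 fall under the naming rule and the other 5 (Gm28437, Rpl30-ps1, Rpl30-ps10, Rpl23a-ps3 and D730044K07Rik) are of kinds it leaves out, named after their values were seen. Smim11 differed by -1.43, Lsm8, of the U6 snRNP, by -1.06, and Calm3, a calmodulin gene, by -1.06. They were at 20 FPKM or more in 2 against 6, 6 against 9 and 2 against 6 cells, and at or under 2% of another well of the column in 11 to 20 cells of a class. The next negative differences did not reach the criterion. Zfyve21 at -0.82, Ccl9 at -0.88 and Mrpl20 at -0.63 were at 20 FPKM in 2 against 4, 8 against 9 and 3 against 4 cells. Tlcd1 at -0.89 shares exon sequence with Rpl23a, and Ubxn11 at -0.65 with Sh3bgrl3 at -0.60, so the reads of these pairs cannot be separated. Gng5, a G protein subunit, differed by -0.70, and 94.4% of its values were fractions of a read.

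Gene length and type went with the difference. In 5 groups of exon length, from a median of 343.5 to 5533 bases, the median difference was 0.14, 0.29, 1.0, 1.21 and 1.26. Coding genes had a median of 1.13 over 1838 genes with 44.5% higher, and processed pseudogenes 0.05 over 709 with 10.3% higher. Of 5 groups by mean FPKM, the lowest, with a median level of 3.71 FPKM, had 0.06 and the others 0.94 to 1.13. The part of length, sequence copies or level in the list differences was not tested. The early genes had a median of 2 exons and the coding genes 6.

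The same split was made within the cells of day 2 and of day 4. At day 2 the median was 3473 genes and 27 gene-rich cells (median 4401 genes) stood against 27 gene-poor cells (2323 genes). At day 4 it was 3965 genes, and 18 cells (4964 genes) stood against 18 (2799 genes). Each day is read on its own, with values beside those of the untreated cells. Of the same 2836 genes, 36% were higher at day 2 and 35.4% at day 4, and 0% and 0.247% were lower. The median difference of all genes was 1.17 and 1.11.

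Immediate-early genes had smaller pooled differences in the cells after crush, but at day 2 this was uneven between plates. The list median was 2.31 at day 2 (4.46, -0.50 and 3.74 by plate) and 2.47 at day 4 (2.40, 2.98 and 3.33), against 4.72 without treatment. At day 2 only plate 2 was below 0. Plates 1 and 3 were at 4.46 and 3.74, against 4.15 and 4.79 in the same plates of untreated cells. Of the 16 members, 2 (12.5%) were higher at day 2 and 16 at day 4. The gene-rich level was alike, with a median list mean of 8.78, 8.09 and 8.0 for the untreated, day 2 and day 4 cells in that order, and the gene-poor level was 2.94, 4.02 and 4.66. Zfp36 differed by 5.47, 2.66 and 2.81 and Jun by 5.32, 2.61 and 3.00. In plate 2 of day 2 both were below 0, at -0.25 and -0.46. Glucocorticoid-induced genes had medians of 3.84, 1.64 and 2.08, and Tsc22d3 differed by 3.94, 0.60 and 1.21. In plate 2 of day 2 the glucocorticoid list was at -1.07. With 1 sample a time point, the difference between time points was not tested.

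Several lists had larger differences in the splits after crush, where the median of all genes was larger too (0.80, 1.17 and 1.11). The cytokine list stood at 2.57 at day 2 and 2.62 at day 4, against 1.6 without treatment. Tnf differed by 1.62, 2.61 and 3.54, Gpr84 by 2.28, 2.71 and 3.27 and Il1a by 3.34, 3.47 and 3.93, again in the order of time. Tnf and Il1a were above 0 in every plate of every time point. This is a description and not a result, since the rule for the classes favours values above 0 at each time point. Among untreated cells alone, 43.7% of all genes were above 0 in all 3 plates, and the share over all time points is not given here. Proteasome genes had 0.91, 1.82 and 1.70, spliceosome genes 0.71, 1.46 and 1.68, and ribosomal proteins 0.28, 1.11 and 0.74. Other lists had smaller differences: homeostatic genes had 2.16, 0.94 and 1.75, with -0.38 in plate 2 of day 2, microglial transcription factors 2.29, 2.06 and 1.67, and long noncoding RNAs 2.78, 2.00 and 2.23. Tmsb4x differed by -1.0, -0.12 and -0.53.

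**Figure D5:**
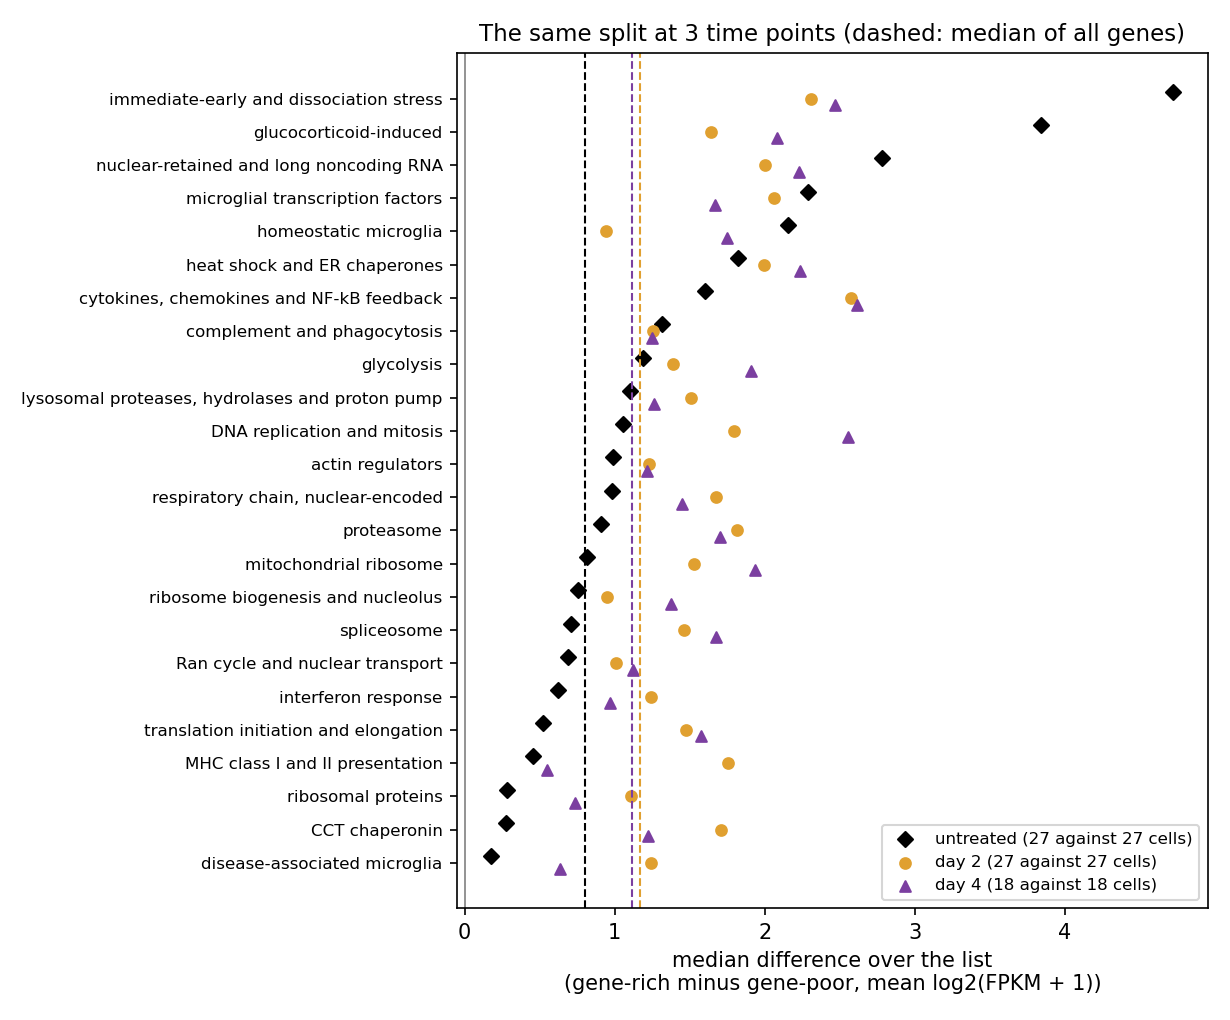
Median list difference between gene-rich and gene-poor cells, mean log2(FPKM + 1), in untreated cells (27 against 27), at day 2 (27 against 27) and at day 4 (18 against 18), with dashed lines at the median of all genes, 0.80, 1.17 and 1.11. The immediate-early list lies at 4.72 in untreated cells and at 2.31 and 2.47 after crush. Within plates 1, 2 and 3 of day 2, not drawn, it was at 4.46, -0.50 and 3.74.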

How the data were processed

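Single cells were sorted into lysis buffer, their cDNA was amplified and libraries were made with the Nextera XT kit, per the labels' protocols, which mention no molecular identifiers. The submitters' processing notes name GRCm38.p6 and mm10 as builds. They also name STAR 2.7.2b, featureCounts 1.6.1, cutadapt 1.16, Trimmomatic 0.36 and Trim Galore 0.4.4, whose settings were not given in the sources used here. Per gene and cell, FPKM was the unit the authors deposited (55364 genes, 144 cells). FPKM times gene length summed to 1e+09 in each cell, so a value is a share of assigned reads and a higher share of some genes lowers the others. There are 0 rows of the mitochondrial chromosome.

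Reads were recovered from the step between low values. In the median cell, 60.9% of the nonzero values came to whole reads within 0.01 read, so no count model was used. Assigned reads of untreated cells were 0.710 to 13.8 (median 4.93) in units of 1000000. Cells were split and genes compared with a pseudocount of 1, pooled and within each of the 3 plates, with Python 3.11.15, pandas 2.3.3, numpy 2.4.6 and matplotlib 3.10.9. Differences understate the change of low genes. The scripts were tested on simulated data.

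The members, the 25 programme lists and the 16 marker lists were chosen with earlier results of these data known. The text names the 12 largest positive and 12 largest negative differences with the same sign in all 3 plates, the 10 most abundant genes, Gpr84, Tnf and Il1a, and up to 4 members of each list furthest from the median of all genes. Mitochondrial, Rpl, Rps, Gm, Rik, -ps, LOC, AC and AL names were left out of the largest differences and of the abundant genes. Further list members named were chosen after their values were seen, to describe a role or an exception. A symbol found in several rows was taken from the row with the highest mean, which left out 110 rows. Some genes and sites named by these rules are not reported here. The 2% rule for wells of a column was chosen after seeing the data. Motifs were searched on both strands of promoters and on the sense strand of 3′ untranslated regions, taken from the coding transcript with the longest coding part.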

Additional observations from a re-analysis of the deposited data

How the results depend on the processing

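Each list is given here as its median minus that of all genes. Immediate-early genes kept 2.20 to 4.35 over all alternatives (3.92 as reported), with 2.20 on log2 of the mean FPKM. Over the alternatives, 46 of 68 summary values, 326 of 408 list values and 1859 of 2023 gene values stayed within their limit (for lists and genes, the SD over the 3 plates), and 1, 2 and 4 reversed. A gene could count as reversed only if it met the criterion for higher or lower. A list could do so only past a set distance from all genes, with the same sign in all 3 plates. Other changes of sign are not among the reversed: the respiratory chain list ran from -0.34 to 0.88 and glycolysis from -0.29 to 0.61. No paired analysis was possible because the results come from no test and the cells carry replicate numbers in accession order only. The cause of the shifts below was not tested.

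The 1008 higher genes became 334 on log2 of the mean FPKM, 1851 of 7134 with a filter at 10% of cells and 1884 of 23553 with none. The 8 lower genes became 23 with the split at FPKM 10, 20 on thinned reads, 30 without list genes, 17 with a pseudocount of 0.1, 224 on log2 of the mean FPKM and 3 with depth and plate as covariates. They became 46, 25 and 26 without plate 1, 2 and 3, where only 2 plates must share a sign, 13 without the cell under 1000000 reads and 28 without the 6 cells with markers of another type. The median of all genes (0.80) was 1.21 with a pseudocount of 0.1, -0.22 on log2 of the mean FPKM, 0.63 with the 10% filter and 0.062 with no filter.

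Homeostatic genes (1.35) were at 0.67 with a split within each plate, 0.70 on log2 of the mean FPKM and 2.07 with no filter. Glucocorticoid-induced genes (3.04) were at 2.64 with a split within each plate, 1.88 on log2 of the mean FPKM, 1.93 with the 10% filter, 0.95 with no filter, 2.64 without plate 3 and 2.71 without cells of another type. Disease-associated genes (-0.62) were at -0.42 without list genes, -0.98 with a pseudocount of 0.1, -0.052 on log2 of the mean FPKM, -0.45 with the 10% filter, 0.058 with no filter, -0.18 without plate 1 and -0.41 without plate 2. With no filter ribosomal proteins (-0.52) were at 0.22 and the CCT chaperonin at 0.18. On log2 of the mean FPKM, 4 named genes that had met the criterion for higher turned negative. They were Eno1 at -0.21, Eif3h at -0.36, Gusb at -0.075 and Tapbp at -0.14. Named genes short of the criterion changed sign as well, such as Npm1 from 1.18 to -0.85 and Ifitm3 from 0.20 to -1.80.

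Alternatives added after seeing the data left out well column 2 (14 lower genes, disease-associated genes at -0.25), left out the cell with the most genes, or split without values at or under 2% of the column (23 lower genes).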
